A study of Mus musculus with 7 samples.

Results

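TEC gene models are loci that the GENCODE mouse annotation lists as still in need of experimental proof: transcribed stretches known mostly from cDNA clones, with a gene identifier but no verified transcript structure. The models described here are those in the deposited CPM table whose raw reads reached 100 when summed over the 7 libraries of the study. This rule kept 151 of the 551 TEC models in that table, out of 48709 Ensembl genes counted. The members were thus chosen by their summed raw count, and their levels are given as a description. The sum also ran over 4 DKO and 3 WT libraries, so a model high in DKO reached it more easily. The last models to enter were Gm38197, in an intron of the transcription factor gene Mecom, and Particl, which lies across the start of Mat2a, the gene for S-adenosylmethionine synthetase. The first to stay out were 8430422M14Rik, with 99 reads, and Gm43340, with 98 reads.

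Nuclear RNA contains unspliced transcripts, and most of the length of a mammalian gene is intron. A cDNA clone taken from such RNA, or from a transcript whose end lies inside an intron or beyond the usual gene end, can enter an annotation as a separate single-exon gene. Genes read in the opposite direction from a shared promoter region give another class of unverified transcript. The question asked here was where the TEC models lie relative to genes expressed in the kidney, and whether their levels followed those genes.

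The RNA came from whole kidneys of male mice: 4 libraries from animals labelled as double knockout (DKO) for Hs3st3a1 together with Hs3st3b1, replicates 1 to 4, and 3 from wild-type (WT) animals, replicates 1, 2 and 4. The encoded enzymes add the 3-O-sulfate group to heparan sulfate, a sugar chain on cell surfaces and in basement membranes. Strain and age are not given in the labels, and each library carries its own animal number. Libraries were made from total RNA with a kit that does not mark the strand. In bulk kidney RNA, fewer cells of a type and less RNA per cell cannot be told apart.

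Library totals ran from 18330929 to 24259400 reads in the DKO libraries and from 19114393 to 22610701 reads in the WT libraries. Hs3st3a1 received 1, 0, 0 and 3 reads in DKO libraries 1 to 4, against 29, 13 and 12 reads in WT libraries 1, 2 and 4. Hs3st3b1 received 33, 106, 65 and 108 reads in DKO, against 56, 90 and 112 reads in WT. The deposited row of a neomycin cassette, Neo, held 73, 75, 81 and 125 reads in DKO and 0, 0 and 0 reads in WT, so all 4 DKO libraries carried it. All 11 kidney marker genes, such as Umod and Nphs1, were detected, with summed levels of 9542 to 11801 CPM (reads scaled to a common library size) in DKO and 9368 to 12901 CPM in WT. DKO 1 stood apart from the other DKO libraries in the TEC models. It also held 51.9 CPM of the muscle genes Acta1 and Ckm, against 0.204 to 1.73 CPM in the other DKO libraries and 0.237 to 0.476 CPM in WT. The part of this difference in the results was not tested.

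The last 80 bases of the transcript are shown for 6 models on which the comparisons turn, 5′ to 3′, taken from the GENCODE M21 transcripts on GRCm38. Capitals mark a poly(A) signal, AATAAA or ATTAAA, found on the transcript strand within the last 50 bases. Gm38319 and Gm42735 lie in introns of Lactb2 and Atp8a1, had the smallest p of all models higher in DKO, and have no such signal. Gm37581 and Gm37163 lie in introns of Zfp280d and Pfkfb2 and have the signal. Gm45743 and Gm42690 lie outside tested genes, had the smallest p among models lower in DKO, and have the signal 13 bases before the end.

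Gm38319, chr1:13641483-13641562, minus strand: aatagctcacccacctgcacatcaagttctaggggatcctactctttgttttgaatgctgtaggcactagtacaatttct
Gm42735, chr5:67633663-67633742, minus strand: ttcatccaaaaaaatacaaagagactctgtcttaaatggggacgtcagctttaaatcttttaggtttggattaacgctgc
Gm37581, chr9:72358135-72358214, plus strand: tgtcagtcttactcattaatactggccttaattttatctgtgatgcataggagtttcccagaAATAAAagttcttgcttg
Gm37163, chr1:130727132-130727211, minus strand: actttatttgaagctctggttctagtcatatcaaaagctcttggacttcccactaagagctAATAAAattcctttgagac
Gm45743, chr8:122828801-122828880, plus strand: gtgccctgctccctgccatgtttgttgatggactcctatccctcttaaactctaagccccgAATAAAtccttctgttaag
Gm42690, chr5:100431482-100431561, plus strand: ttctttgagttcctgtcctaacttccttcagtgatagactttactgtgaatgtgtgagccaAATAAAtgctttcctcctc

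Most of the TEC models lay inside introns of expressed genes. All 151 matched GENCODE M21 and had a single exon, and 1 of them, 4930518I15Rik, is listed there as protein coding. A host was taken as a gene tested in these libraries that the model overlapped or lay within 5 kb of. By this measure 91 models (60.3%, exact 95% interval 52.0% to 68.1%) lay within an intron, clear of every exon of the host. Of these, 80 were on the strand of the host and 11 on the opposite strand. A further 22 models (14.6%) overlapped an exon of the host, 18 of them on the opposite strand. The share of the model inside host exons was small, with a median of 6.96% and a highest value of 32.6%, and 0 of the 22 lay wholly in exons. Beyond gene ends, 11 models (7.28%) lay in the 5 kb downstream, 9 of them on the host strand. The 5 kb upstream held 15 models (9.93%), 10 of them on the opposite strand, at a median of 164 bases from the start of the host. The remaining 12 models (7.95%) had no tested gene within reach.

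The positions differed from those of TEC models in general, a difference that the choice of expressed models can set because hosts had to be expressed. Of the 3219 TEC genes in GENCODE M21, 42.1% lay in an intron of a tested gene and 41.6% had no tested gene within 5 kb. Among the 400 TEC models of the table that stayed under 100 reads, the intron share was 59.3% and the share away from genes 12.3%, close to the values of the chosen models. The 139 models with a host had 127 distinct hosts, of which 118 are protein coding, and 12 hosts held 2 models each. The hosts of intron models were long, with a median span of 83253 bases. The intron models themselves had a median length of 2217 bases and lay a median of 2088 bases from the nearest host exon. Their middle lay anywhere from 1.54% to 98.2% of the way along the host, with a median of 37.6%, so they were not confined to the last part of the gene.

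The models were unevenly spread over the genome, as were the TEC genes of the annotation. Chromosome 5 held 37 of the 151 (24.5%), against 15.6% of all TEC genes of the annotation, and chromosome 1 held 27 (17.9%), against 14.8%. Chromosomes 3 and 6 held 20 models each. Chromosome 10 held 0, against 5.44% of all TEC genes of the annotation. The models carried the TEC label in the deposited table and the TEC genes of the annotation carried it in GENCODE M21, so the labels may differ.

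Levels were low for nearly all models. The mean over the 7 libraries ran from 0.666 to 40.7 CPM, with a median of 1.73 CPM. Read density, as CPM per kb of exon merged over all annotated transcripts of a gene, allowed comparison with the hosts. Exons of rarely used transcripts add to this length, so they can lower the density of a host and raise the ratio. The median model had 0.37 times the density of its host, and 35 of 139 models exceeded it. Within introns the median was 0.53 times, and 28 of 91 models had a higher density than the exons of their host. The highest ratios belonged to C230071H17Rik in an intron of Auts2 (21.8 times), Gm44220 in an intron of 9530026P05Rik (21.3 times) and Gm43519 in an intron of Sema3e (10.9 times). Auts2 encodes a Polycomb-associated nuclear protein and Sema3e a secreted guidance factor, and both were at low levels, with densities of 0.215 and 0.208 CPM per kb. The lowest ratios were those of Gm38218 downstream of Acadl (0.00173 times), Gm37824 downstream of Pter (0.00274 times) and Gm43775 in an intron of Rbm47 (0.00316 times). Acadl encodes a mitochondrial enzyme of fatty acid oxidation and Rbm47 an RNA-binding protein. Their densities of 132 and 261 CPM per kb put them far above the models beside them.

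The TEC models as a group took a larger share of reads in 3 of the 4 DKO libraries than in WT. Their share of all gene counts was 0.0449%, 0.105%, 0.0837% and 0.0824% in DKO 1 to 4, against 0.0479%, 0.0472% and 0.0459% in WT 1, 2 and 4. DKO 2, 3 and 4 were above every WT library, and DKO 1 was below all of them. The intron models held the largest part, with 0.0252%, 0.0696%, 0.0544% and 0.0544% in DKO, against 0.0249%, 0.0266% and 0.0252% in WT. DKO 1 was within the WT range in this class. DKO 2, 3 and 4 were also above every WT library in TEC models that the rule did not choose: those of the table under 100 reads took 0.00748%, 0.0137%, 0.0121% and 0.0139% in DKO, against 0.00805%, 0.00696% and 0.00938% in WT. DKO 1 was within the WT range there.

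**Figure D1:**
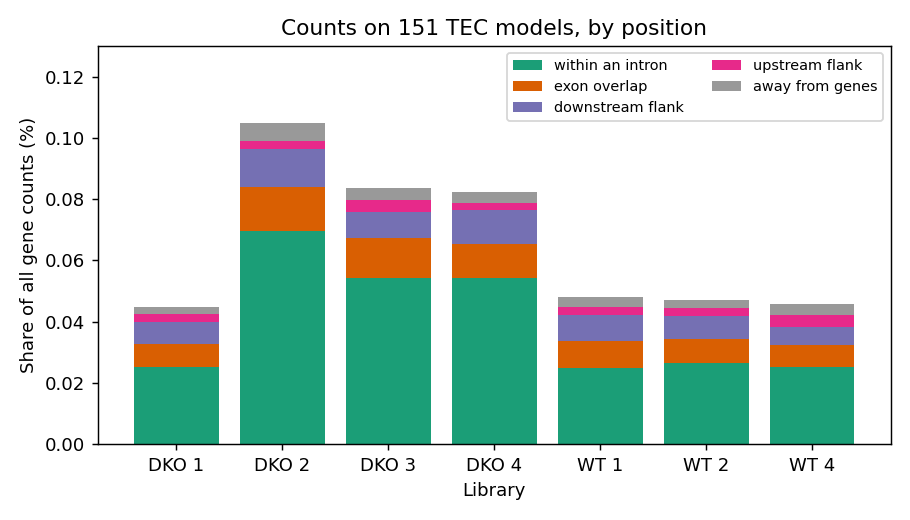
Share of all gene counts (%) that fell on the 151 TEC models in each library, stacked by the position of the model relative to its host gene. DKO 2, 3 and 4 stood at 0.105%, 0.0837% and 0.0824%, and DKO 1 at 0.0449%, against 0.0459% to 0.0479% in WT.

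Of the 151 models, 0 were called between DKO and WT at an adjusted p under 0.05 in edgeR's quasi-likelihood test, where 0.0% of all 15394 genes were called. At an unadjusted p under 0.05, 47 models were higher in DKO and 3 lower, where 9.86% of all genes were higher and 11.3% lower. The log2 fold change was above 0 in 123 of 151 models, against 53.2% of all genes. Its median was 0.69 for the models, 0.04 for all genes and 0.18 for the hosts. Models high in DKO reached the summed raw count more easily, and the set of all genes was not chosen by that count. The shares of models and of all genes, here and below, are thus not a like comparison. How much of the excess of higher models came from that choice was not tested. DESeq2, which gave an adjusted p for 84 of the models, called 15 higher and 1 lower, with 1.77% of all genes called higher and 2.97% lower. limma-voom called 0 models and 0.0% of all genes, with 35 models higher and 2 lower at an unadjusted p under 0.05, where 9.67% of all genes were higher and 10.8% lower. Without the low-count filter, edgeR called Gm38319, Gm42735 and Gm43180 higher and Gm45743 lower (3 and 1 models), with 0.138% of 27440 genes called higher and 0.102% lower. In 23 models every DKO library was above every WT library, where 8.34% of all genes were, and in 2 models every DKO library was below, where 9.04% were.

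The count depended on DKO 1 and DKO 2. DKO 1 was the lowest of the DKO libraries in 108 of 151 models, against 28.4% of all genes. DKO 2, 3 and 4 were all above DKO 1 and every WT library in 66 models, against 11.9% of all genes. Without DKO 1, edgeR gave 73 models higher and 3 lower at an unadjusted p under 0.05, where 12.5% of all genes were higher and 12.5% lower, and called 1 model, C130089K02Rik, at an adjusted p under 0.05, where 0.046% of genes were called. The log2 fold change was then above 0 in 125 models, against 52.6% of all genes. Without DKO 2 the count higher in DKO was 29, where 6.55% of all genes were higher. DKO 1 held 73 cassette reads and 1 Hs3st3a1 read, near the other DKO libraries, which held 75 to 125 and 0 to 3. Hs3st3b1 reads overlapped between the genotypes, with the fewest, 33, in DKO 1.

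Among the position classes the intron models had the highest median log2 fold change, 0.93, and 85 of 91 were above 0. At an unadjusted p under 0.05, 39 were higher in DKO and 0 lower, where 9.86% of all genes were higher and 11.3% lower. Without DKO 1, 58 were higher, where 12.5% of all genes were. The 84 hosts of these models had a median over models of 0.24. With all libraries, 13 of the hosts (15.5%) were higher and 3 (3.57%) lower at the same threshold. As library medians of log2 CPM centred on each gene's mean, the intron models stood at -0.46, 0.82, 0.55 and 0.56 in DKO 1 to 4, against -0.53, -0.36 and -0.39 in WT 1, 2 and 4. Their hosts stood at -0.03, 0.08, 0.17 and 0.05 in DKO, against -0.12, -0.06 and -0.16 in WT. Both sets were higher in DKO 2, 3 and 4 than in WT, and the spread between libraries was several times wider in the models. The 3 DKO libraries exceeded DKO 1 and every WT library in 54 of 91 intron models, in 24 of the 84 hosts and in 12 of the 60 models outside introns.

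**Figure D2:**
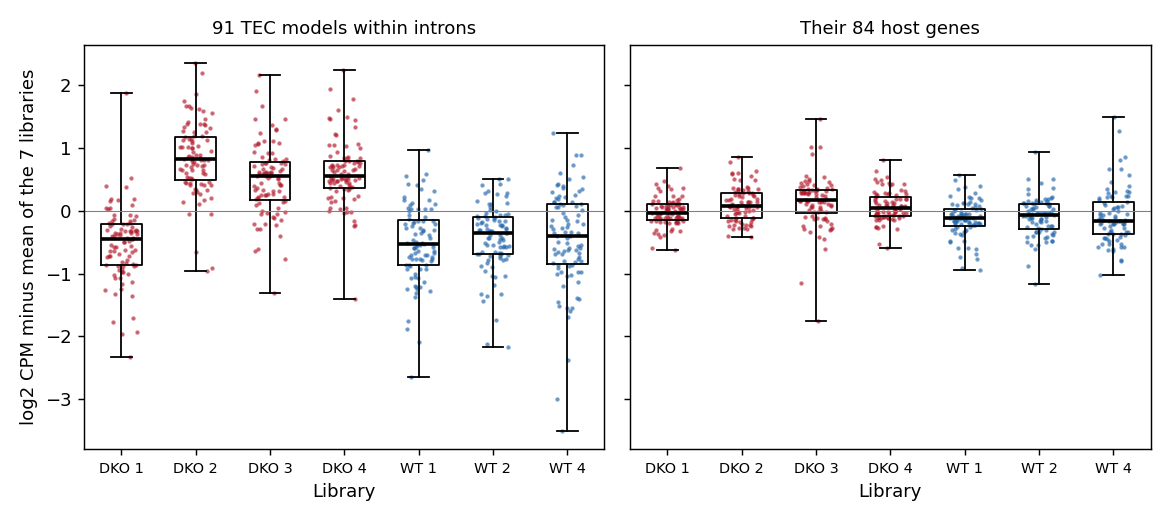
Centred log2 CPM of the 91 intron TEC models (left) and of their host genes (right) in each library; points are genes, boxes span the quartiles around the median and whiskers all values. The median of the models was 0.82 in DKO 2 and -0.53 in WT 1, whereas the library medians of the hosts lay between -0.16 and 0.17.

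The 6 models higher in DKO with the smallest p were Gm38319, Gm42735, Gm43314, Gm38309, Gm43180 and Gm37163. Gm38319 lies in an intron of Lactb2, which encodes a mitochondrial endoribonuclease. It had 20.7, 46.4, 38.1 and 31.7 CPM in DKO 1 to 4, against 9.96, 13.9 and 15.4 CPM in WT. All 4 DKO libraries were above all WT libraries. The log2 fold change was 1.39 ± 0.27 (SE; edgeR p 0.000317, adjusted p 0.163; DESeq2 adjusted p 0.0018). Lactb2 itself had 617, 630, 553 and 762 CPM in DKO, against 717, 640 and 774 CPM in WT, with overlapping groups and a log2 fold change of -0.15 ± 0.17 (edgeR adjusted p 0.637). Part of Gm38319, 9.64% of its length, is nearly identical to other genes, the longest stretch being 122 bases shared with the ribosomal protein gene Rps18.

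Gm42735 lies in an intron of Atp8a1, which encodes a phospholipid flippase. It had 4.01, 9.19, 5.996 and 9.06 CPM in DKO, against 2.44, 2.59 and 2.89 CPM in WT. The groups did not overlap, and the log2 fold change was 1.42 ± 0.30 (SE; edgeR adjusted p 0.163; DESeq2 adjusted p 0.0121). Its density was 8.76 times that of Atp8a1, whose own log2 fold change was 0.29 ± 0.22 (edgeR adjusted p 0.461).

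Gm43180, in an intron of the noncoding gene 9230114K14Rik, had 4.49, 14.0, 8.35 and 9.92 CPM in DKO, against 3.68, 3.49 and 3.22 CPM in WT. The groups did not overlap, with DKO 1 the nearest to WT, and the log2 fold change was 1.40 ± 0.33 (SE; edgeR adjusted p 0.163). The host had a log2 fold change of -0.35 ± 0.21, with its highest value, 14.0 CPM, in WT 4. Gm43314, in an intron of Cth, the gene of cystathionine gamma-lyase, had 1.67, 1.89, 3.64 and 2.49 CPM in DKO and 0.83, 0.90 and 0.71 CPM in WT. Its groups did not overlap either. Gm43314 adjoins an exon of Cth, at a distance of 1 base, and Cth itself reached 237 CPM in DKO 3, against 59.3 to 92.4 CPM in the other DKO libraries and 44.8 to 92.6 CPM in WT. Gm37163, in an intron of Pfkfb2, which sets the level of fructose 2,6-bisphosphate, had 1.41, 1.58, 1.95 and 1.47 CPM in DKO, against 0.727, 0.529 and 0.568 CPM in WT. Here DKO 1 was close to the other DKO libraries, and the groups did not overlap. Gm38309 had no tested gene within 11772 bases, the distance to Spopl. It had 2.46, 5.25, 5.43 and 4.204 CPM in DKO, against 1.82, 1.8 and 1.51 CPM in WT, and again all DKO libraries were above WT.

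The largest fold changes, picked out after their values were seen, rested on few reads in WT. C130089K02Rik, in an intron of the Notch coactivator gene Maml3, received 26, 111, 100 and 219 reads in DKO, against 4, 14 and 20 reads in WT. Its log2 fold change was 3.04 ± 0.71 (SE; edgeR adjusted p 0.163). Every DKO library was above every WT library, and DKO 1 was the nearest to WT. Maml3 had a log2 fold change of 0.09. Gm44001, in an intron of the monoglyceride lipase gene Mgll, received 10, 47, 12 and 32 reads in DKO, against 1, 6 and 0 reads in WT.

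Few models were lower in DKO. Gm45743 has no tested gene within 8206 bases and overlaps Gm20388, a protein-coding model that was not tested. It had 1.54, 2.57, 1.13 and 2.73 CPM in DKO, against 4.93, 3.49 and 7.48 CPM in WT. All DKO libraries were below all WT libraries, with a log2 fold change of -1.41 ± 0.36 (SE; edgeR p 0.00227, adjusted p 0.163; DESeq2 adjusted p 0.025). Gm42690 lies 191 bases upstream of 5430416N02Rik on the opposite strand. It had 2.46, 1.26, 2.41 and 1.84 CPM in DKO, against 2.70, 3.07 and 6.44 CPM in WT, and the groups did not overlap. 4732416N19Rik, across the start of the ER to Golgi transport gene Ergic2, had 0.484, 0.630, 0.615 and 0.449 CPM in DKO, against 1.30, 0.529 and 1.28 CPM in WT, where WT 2 fell among the DKO libraries. The other named models with a negative fold change were Gm10699 beside Erich1, C130012C08Rik beside Zfp503 and Gm10766 beside Stard7, with log2 fold changes of -0.76, -0.63 and -0.37 and unadjusted p of 0.0801, 0.0796 and 0.158 in edgeR. These 3 lie upstream of their host on the opposite strand.

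Among the 10 most abundant models, DKO 1 was the lowest DKO library in all 10, and DKO 2, 3 and 4 were above every WT library in 7. The most abundant, Gm44950, lies 494 bases downstream of Arpin, an inhibitor of actin branching, on the same strand. It had 36.3, 56.4, 38.6 and 49.99 CPM in DKO, against 43.3, 36.6 and 23.7 CPM in WT, and the groups overlapped. Gm43361 lies across an exon of Atp2a2, the gene of the SERCA2 calcium pump, on the opposite strand. It had 23.9, 61.7, 47.6 and 34.6 CPM in DKO, against 24.7, 27.5 and 25.6 CPM in WT, with DKO 1 below all WT libraries. Gm40309, in an intron of the ubiquitin-conjugating enzyme gene Ube2k, had 12.1, 52.4, 31.6 and 40.4 CPM in DKO, against 16.0, 13.4 and 20.7 CPM in WT. DKO 1 was again the lowest of the 7. Ube2k stayed level, with 49.6, 44.7, 52.3 and 48.0 CPM in DKO and 44.6, 55.05 and 46.2 CPM in WT. The model had 2.47 times the density of that gene.

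Gm45828 and C230071H17Rik again had DKO 1 as the lowest DKO library, beside hosts that differed in level. Gm45828, in an intron of the taurine transporter gene Slc6a6, had 12.6, 31.6, 33.6 and 18.4 CPM in DKO, against 6.54, 13.4 and 10.2 CPM in WT. Slc6a6 had 148, 144, 255 and 133 CPM in DKO, against 78.1, 102 and 87.7 CPM in WT, and its groups did not overlap (log2 fold change 0.93 ± 0.24, edgeR adjusted p 0.163). C230071H17Rik had 6.21, 26.6, 21.9 and 17.1 CPM in DKO, against 10.8, 7.15 and 7.81 CPM in WT, where Auts2 had 4.18, 4.62, 8.87 and 4.61 CPM in DKO and 4.36, 3.71 and 4.07 CPM in WT. Gm43571, in an intron of the RNA-binding protein gene Atxn2, had 5.59 CPM in DKO 1, against 23.6, 24.9 and 25.5 CPM in the other DKO libraries and 8.89 to 15.1 CPM in WT. The other 3 of the 10 were Gm42732 in an intron of Ociad1, Gm45629 downstream of Saal1 and Gm37795, which overlaps the microRNA gene Mir34a and has no tested gene near it. Their log2 fold changes were 0.42, 0.45 and 0.54, with unadjusted p of 0.189, 0.108 and 0.142 in edgeR.

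**Figure D3:**
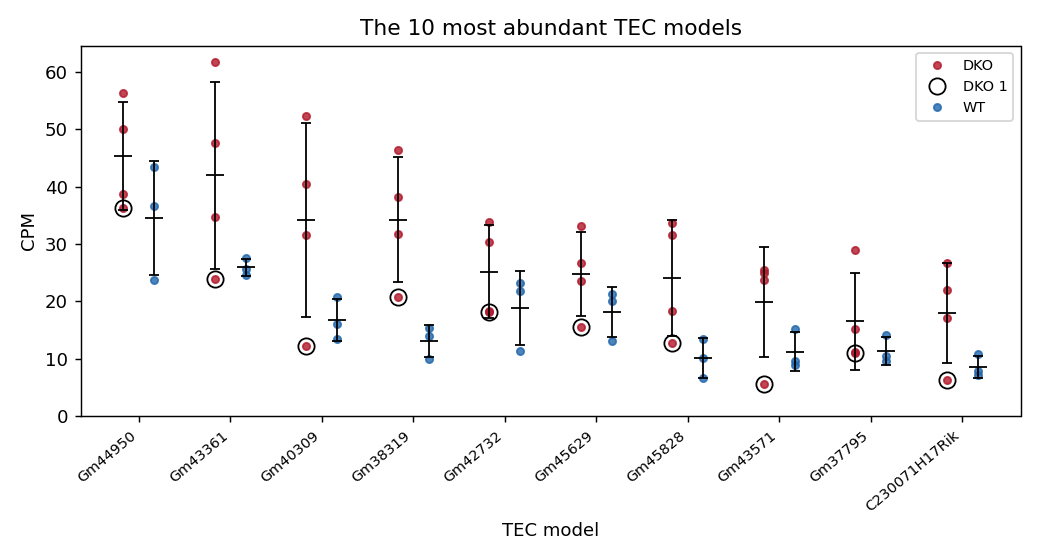
CPM of the 10 most abundant TEC models in each library, DKO left of WT, with the mean and SD of each genotype (n = 4 and n = 3) and DKO 1 ringed. DKO 1 was the lowest DKO library for all 10, and for Gm40309 it stood at 12.1 CPM beside 31.6 to 52.4 CPM in the other DKO libraries.

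TEC models followed their hosts weakly and followed the median of the other TEC models more closely. Over the 7 libraries, the median Pearson r of a model with its host was 0.33 (Spearman rho 0.29) over 139 models. With the nearest other tested gene it was 0.09. With the median of all other TEC models it was 0.74, a median over many genes carrying less counting error than a single gene. These are descriptions over the same 7 libraries, which every model shares. The r with the host was above 0 in 97 of 139 models and above 0.7 in 31, and it exceeded the r with the neighbouring gene in 77. The r with the other TEC models exceeded that with the host in 103. Once the median of the other models was subtracted from each model, the median r with the host was 0.19, and with deviations from the genotype means it was 0.24. For the intron models alone the medians were 0.40 with the host, 0.04 with the neighbour and 0.81 with the other models. For the 15 upstream models they were -0.03, -0.24 and -0.11. Over all 11325 pairs of single models the median r was 0.38, near the 0.33 of a model with its host. Counting error lowers r more between models, which are both of low level, than between a model and its host. The near values thus do not show that models followed each other and their hosts equally.

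**Figure D4:**
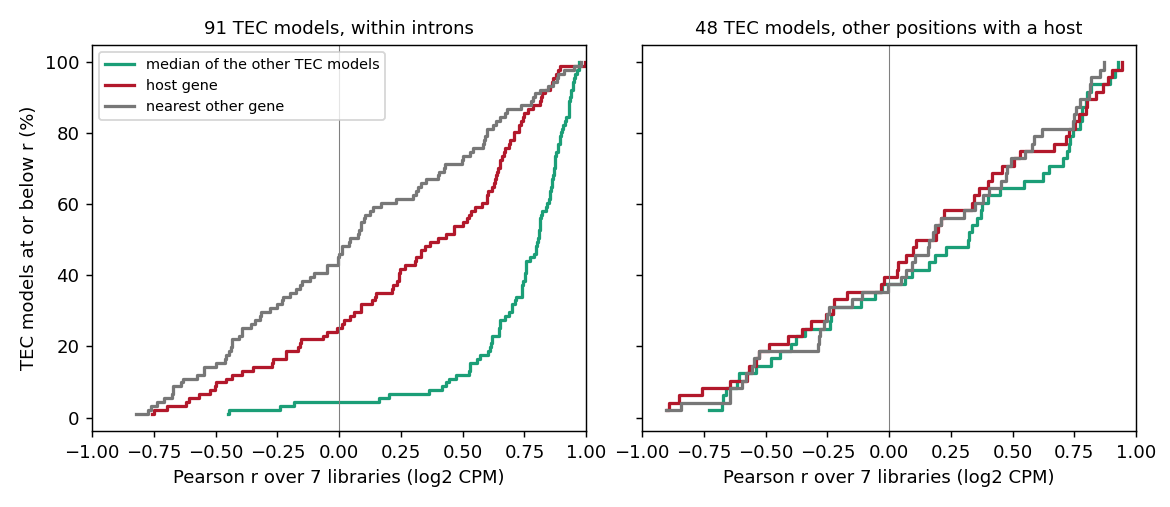
Cumulative share of TEC models (%) by Pearson r over the 7 libraries with the median of the other models, the host gene and the nearest other gene, for the 91 intron models (left) and the 48 others with a host (right). In introns the median r was 0.81 with the other models, 0.40 with the host and 0.04 with the neighbour.

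By an exact two-sided permutation test over the 5040 orders of the libraries, 26 of 139 models had a p under 0.05 for r with the host, 22 with a positive r and 4 with a negative r. After Benjamini-Hochberg adjustment over the 139 models, 1 remained: Gm37581 in an intron of the zinc finger gene Zfp280d. Gm37581 had 0.792, 3.10, 1.59 and 1.67 CPM in DKO, against 0.363, 0.476 and 0.615 CPM in WT. Zfp280d had 9.64, 17.4, 12.5 and 13.7 CPM in DKO, against 6.75, 6.93 and 8.42 CPM in WT. The groups did not overlap for either, and the order of the 7 libraries was the same in both. Their r was 0.99 (exact permutation p 0.000198, adjusted p 0.0276) and rho was 1.0 (exact permutation p 0.000397), and r stayed at 0.99 without the 2 libraries farthest from the median of the host. The log2 fold change was 1.86 ± 0.49 (SE) for the model and 0.85 ± 0.22 for the host, with an edgeR adjusted p of 0.163 for each. This model ends with a poly(A) signal.

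The other models with a high r did not pass the adjustment. Gm43461, 1428 bases upstream of the deadenylase subunit gene Pan3, had an r of 0.94 (exact permutation p 0.00496, adjusted p 0.161) and a rho of 0.82 (exact permutation p 0.0341). Gm42727, across an exon of the cohesin regulator gene Pds5a, had 1.14, 1.37, 3.895 and 2.37 CPM in DKO, against 0.934, 0.741 and 0.804 CPM in WT. Pds5a had 18.5, 14.8, 24.4 and 20.0 CPM in DKO, against 11.9, 9.26 and 9.18 CPM in WT. Both were above WT in every DKO library and highest in DKO 3. Their r was 0.90 (exact permutation p 0.00278, adjusted p 0.161) and their rho 0.93 (exact permutation p 0.00675). Gm37767, in an intron of the dynamin gene Dnm3, had an r of 0.90 (exact permutation p 0.00952, adjusted p 0.161) and a rho of 0.82 (exact permutation p 0.0341). However, 59.2% of its length is nearly identical to other genes, so its reads may be split among copies. 9330162G02Rik lies across the ubiquitin ligase gene Ube3a on the opposite strand and spans 30942 bases, the longest of the 151 models. It had an r of 0.89 (exact permutation p 0.0109, adjusted p 0.161) and a rho of 0.93 (exact permutation p 0.00675). Gm42727 and 9330162G02Rik share bases with exons of their hosts. The kit does not mark the strand, so reads on those bases cannot be assigned to model or host. Without the 2 libraries farthest from the median of the host, r was 0.80 for Gm43461, 0.84 for Gm42727, 0.81 for Gm37767 and 0.86 for 9330162G02Rik.

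The models with the lowest r with their host are listed as a description. At an exact permutation p under 0.05, 4 of 139 models (2.88%) had a negative r, and these did not pass the adjustment. That share is near the one expected for a negative r without any relation. An opposite course of model and host is thus not shown. Gm45629 had 15.5, 33.1, 23.5 and 26.7 CPM in DKO, against 21.2, 20.0 and 13.1 CPM in WT. Saal1, which ends 725 bases before it on the same strand, had 25.2, 16.1, 22.6 and 17.5 CPM in DKO, against 21.1, 26.1 and 26.5 CPM in WT. DKO 2 had the highest value of the model and the lowest of the host. Their r was -0.89 (exact permutation p 0.00754, adjusted p 0.161), their rho -0.93 (exact permutation p 0.00675) and their r without the 2 farthest libraries -0.71. Gm44950 and Arpin gave an r of -0.85 (exact permutation p 0.0183, adjusted p 0.161) and a rho of -0.61 (exact permutation p 0.167), and r was -0.34 without the 2 farthest libraries, so that relation rested on them. Gm43511 and the mitochondrial ribosome gene Mrps18c gave an r of -0.90 (exact permutation p 0.0145, adjusted p 0.161) and a rho of -0.75 (exact permutation p 0.0663). Mrps18c had 35.7 to 49.7 CPM in DKO and reached 114 CPM in WT 4, and r was -0.84 without the 2 farthest libraries. Gm45694, in an intron of Zfp961, gave an r of -0.76 (exact permutation p 0.048, adjusted p 0.243) and a rho of -0.46 (exact permutation p 0.302). Gm44907, 23 bases upstream of the complex I assembly gene Tmem126a, gave an r of -0.76 (exact permutation p 0.051, adjusted p 0.243) and a rho of -0.82 (exact permutation p 0.0341). Without the 2 farthest libraries these were -0.78 and -0.58.

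The log2 ratio of model to host was higher in DKO for 100 of 139 models, with a median difference of 0.45. By an exact two-sided permutation test over the 35 ways to label the libraries, 2.88% of these ratios (4 of 139) reached a p under 0.05. The smallest p this design allows is 0.0286, and only the most extreme labelling falls under 0.05. The share reached is thus near the 0.0286 expected without any difference, and 0 passed the adjustment. The pairs are listed as a description. The 4 were Gm38319 with Lactb2, Gm44829 with Snhg14 and Gm45120 with Eed, higher in DKO, and Gm42690 with 5430416N02Rik, lower in DKO. Gm44829 and Gm45120 fell outside the rule for named genes and were picked after their values were seen. The median ratio by library, centred on each model's mean, was -0.34, 0.60, 0.21 and 0.36 in DKO 1 to 4, against -0.23, -0.25 and -0.10 in WT, so DKO 1 was the lowest of all 7. The sign of the fold change was that of the host in 97 of 139 models, and the fold change of the model exceeded that of the host in 101. For intron models these counts were 67 and 78 of 91.

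**Figure D5:**
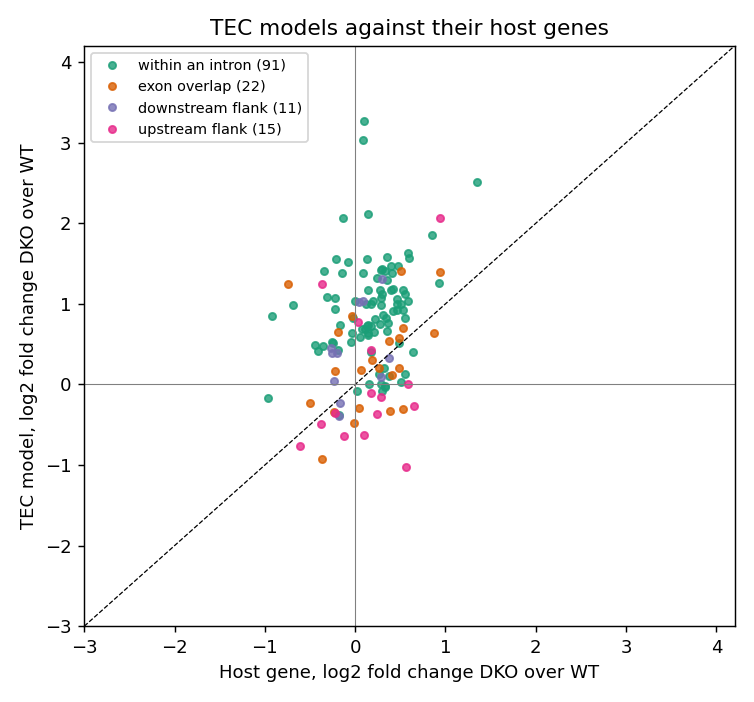
Log2 fold change of DKO over WT for each TEC model (vertical) against that of its host gene (horizontal), coloured by position, with the line of equal change. Of 139 models, 101 lay above the line, and the intron models had a median of 0.93, against 0.24 for their hosts.

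Outside introns the classes were less uniform. The 22 exon-overlapping models had a median log2 fold change of 0.21, with 3 higher and 1 lower at an unadjusted p under 0.05, and the median of their hosts was 0.22. The 11 downstream models had a median of 0.39, against -0.17 for their hosts, with 3 higher and 0 lower. The 15 upstream models had a median of -0.26, against 0.17 for their hosts, with 1 higher and 1 lower. The 12 models away from tested genes had a median of 0.31, with 1 higher and 1 lower. Over all genes 9.86% were higher and 11.3% lower at that threshold, and the class counts are too few to read against these shares. The class differences themselves were not tested. Models on the opposite strand inside introns had a median of 0.59 (11 models) and those on the host strand 0.98 (80 models). Because the kit does not mark the strand, reads of a model within an intron cannot be told apart from reads of the unspliced host. The same holds for reads on bases that a model shares with a host exon.

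Other noncoding and intronic annotations differed in their fold changes. The 30 tested genes that GENCODE M21 lists as sense intronic had a median log2 fold change of 0.65, close to the 0.69 of the TEC models. Their centred library medians were -0.40, 0.65, 0.38 and 0.41 in DKO, against -0.30, -0.24 and -0.21 in WT. DKO 2, 3 and 4 were again above every WT library, and DKO 1 was below all of them. The 937 tested lncRNA genes had a median of -0.04, the 563 processed pseudogenes -0.34 and the 13436 protein-coding genes 0.04. Among nuclear RNAs, Kcnq1ot1, a long unspliced transcript of an imprinted region, had 10.8, 32.6, 21.6 and 28.7 CPM in DKO, against 10.1, 10.6 and 14.5 CPM in WT (edgeR log2 fold change 0.99, adjusted p 0.169), again with DKO 1 at the WT level. The list of nuclear-retained RNAs had 10 genes, of which 6 were tested and all 6 had a log2 fold change above 0. At an unadjusted p under 0.05 in edgeR, Kcnq1ot1, Meg3 (0.98) and Firre (0.42) were higher in DKO, where 9.86% of all genes were. Snhg11 (0.55) was not past that threshold. Meg3 was at a very low level, with 0.410 to 0.788 CPM in DKO and 0.311 to 0.331 CPM in WT (edgeR adjusted p 0.236). Malat1 and Neat1, abundant nuclear lncRNAs of speckles and paraspeckles, had log2 fold changes of 0.13 and 0.02 and overlapping groups.

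Fold changes also differed by gene length, and DKO 1 was again the lowest DKO library among the longest genes. Among the 3791 tested genes with the longest span, the centred library medians were -0.01, 0.15, 0.12 and 0.10 in DKO, against -0.06, -0.09 and -0.17 in WT. Here DKO 1 lay between the other DKO libraries and WT, nearer to the highest WT library than to the other DKO libraries. WT 4 had the lowest value. The median log2 fold change was 0.21 for these longest genes and -0.19 for the 3792 genes with the shortest span. By exon length the medians were 0.25 for the 3790 longest and -0.28 for the 3791 shortest. The share of mitochondrial reads was 0.922% to 1.20% in DKO and 0.881% to 1.37% in WT. The part of gene length in the result for the TEC models was not tested.

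Outside introns, the median fold change differed between models with and without the poly(A) signal, a split made after the values were seen and not tested. AATAAA or ATTAAA was present within the last 50 bases in 57 of 151 models (37.7%), in 25 of the 91 intron models (27.5%) and in 28.9% of all 3219 TEC genes. Outside introns, the 32 models with the signal had a median log2 fold change of -0.08, and 16 were above 0, against 53.2% of all genes. At an unadjusted p under 0.05, 0 were higher in DKO and 3 lower, where 9.86% of all genes were higher and 11.3% lower. The 28 without the signal had a median of 0.48, with 22 above 0, 8 higher and 0 lower. In introns the difference was small, with 0.83 for the 25 models with the signal and 0.94 for the 66 without. Runs of at least 10 T bases occurred in 53 of the 91 intron models (58.2%), against 23.6% of all TEC genes, and runs of at least 10 A bases in 29 (31.9%), against 18.1%. No match in this window says only that these letters are not there.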

How the data were processed

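Whole-kidney RNA of 4 DKO and 3 WT male mice was sequenced. The authors deposited raw read counts per Ensembl gene and a TMM-scaled signal table (CPM), of 18866 entries with 69 repeats, which was used here to find the 551 TEC models. Per the submitters' processing notes, the tools were STAR 2.5.2a for alignment, DESeq2, edgeR and limma. They name the mouse build GRCm38 (mm10) and the human build GRCh38, this one without a role. Which program counted the reads, with which annotation and strand setting, is not stated by any of these sources. The 24 sequences that are no Ensembl gene held at most 0.000697% of a library's counts and were left out of tests.

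The members and lists were chosen with earlier results of these data known. DKO was compared with WT by edgeR 4.0.16 (quasi-likelihood F test, TMM scaling, two-sided, Benjamini-Hochberg adjustment) on the 15394 genes kept by filterByExpr (minimum count 10, minimum total 15). All 151 models passed. SEs were derived from the F statistic. Alternatives were DESeq2 1.42.0, limma-voom 3.58.1, DESeq2 size factors, no filter, a replicate block and leaving out each library. Correlations used log2 CPM (prior count 2). Animal numbers differ between libraries, and p-values measure the spread between these animals. Chi-square values per gene between libraries ran from 40.8 to 207, so none was counted as a repeat.

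Positions, exon lengths and transcript sequences came from GENCODE M21 on GRCm38. A host is a tested gene, taken by exon overlap first, then intron, then flank within 5 kb, and by the highest read density where several qualified. TEC models were not hosts. Nearly identical sequence (at least 100 bases at 98%) was searched with blastn 2.17.0. Intervals on shares are exact 95% binomial intervals and cover counting error only. The test was checked on simulated counts.

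Named models were the 10 most abundant, the 6 with the smallest p in each direction, the 5 with the highest and the 5 with the lowest r with the host, the 3 with the highest and the 3 with the lowest density ratio, their hosts, and those next to the threshold of 100 reads. Others are said to be chosen after their values were seen.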

Additional observations from a re-analysis of the deposited data

Results flagged for a closer look

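In 85 groups of 4 DKO libraries tested with Dixon's criterion, 7 held a library far from the other 3, where chance gives about 1 in 20. Gm43571, in an intron of Atxn2, had 5.59 CPM in DKO 1, far below the other DKO libraries, which had 23.6 to 25.5 CPM. Among hosts, DKO 1 was far above the other DKO libraries in Ociad1 (288 CPM). DKO 3 was far above them in Slc6a6 (255 CPM) and Auts2 (8.87 CPM) and far below them in Zfp503 (4.36 CPM). The 15 upstream models stood apart in DKO 3, with a centred median of 0.27 on the log2 scale and 0.00369% of all gene counts.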

How the results depend on the processing

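The count of genes called among all genes tested was 616 with DESeq2 and 66 without the low-count filter, and 0 to 7 when a library was left out. The count of TEC models called was 16 with DESeq2 and 4 without the filter, and 0 to 1 when a library was left out. Models at an unadjusted p under 0.05 ranged from 29 to 73 higher in DKO (29 without DKO 2, 73 without DKO 1) and from 1 (without WT 4) to 5 (without WT 2) lower when a library was left out. The median log2 fold change of the models stayed between 0.49 and 0.88, and the median ratio difference between 0.30 and 0.71. The median r with the host was 0.24 on deviations from the genotype means and 0.19 with the median of the other models subtracted, and 0.21 (without DKO 3) to 0.40 (without DKO 1) when a library was left out. Shares of the position classes changed by less than their intervals under all alternatives run. Of 428 values of named models under the alternatives, 414 kept their direction and side of the threshold and 12 passed it only in the alternative. Gm37824 changed sign, with -0.083 without DKO 4 and -0.0017 without WT 1, and 0.24 at most. The cause was not tested.

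The replicate numbers were not taken as a pairing of the samples. The correlation of deviations from the group means was -0.133 for replicate 1, 0.164 for replicate 2 and 0.135 for replicate 4. Between DKO and WT libraries of differing number it ran from -0.229 to 0.162. The values are of like size, so this check cannot decide whether the numbers pair the samples. With a replicate block, which leaves out DKO 3 because no WT library shares its number, edgeR called 0 of all genes. At an unadjusted p under 0.05, 44 models were higher and 2 lower, where 7.75% of all genes were higher and 7.32% lower.

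Depth limits the models of low level. Near the threshold of 100 reads, single libraries held as few as 4 reads of Gm38197 and fewer still of Gm44001. Differences at such levels were not detectable at this depth unless large. The basic-transcript exons and the subtraction of the other models were chosen after the data were seen.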
